A study of Mus musculus with 10 samples.

Results

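The 6 genes described here were grouped under T cell costimulation and signalling: Cd28, Tnfrsf4, Tspan32, Skint7, Sash3 and Prkcq. Skint7 and Tspan32 belong to the group through the paper, which ties Skint7 to T cell selection and Tspan32 to signalling at the immune cell surface. Each of the 6 genes was read by 1 probe, so they make up 6 of the 22359 mRNA probes and 6 of the 735 mRNA probes that could be given a gene name. They were chosen because the study lists them as changed between young and aged hearts in these same arrays. The differences between the age groups are therefore given as a description, with standard errors and without a test.

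Hearts came from male C57BL/6 mice aged 3 months (the 3m group, n = 5) or 20 months (the 20m group, n = 5), with 1 mouse per one-colour array. The labels name no treatment and no engineered allele for either group. The age groups were bought from separate suppliers, so that age and supplier cannot be told apart. RNA was taken from heart tissue as a whole. In such bulk samples fewer cells of a type and less RNA per cell cannot be told apart.

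A T cell responds when its antigen receptor binds a peptide held by another cell and a second, costimulatory signal arrives with it. CD28, which binds CD80 and CD86, gives this signal to resting T cells, and OX40, the product of Tnfrsf4, prolongs the response of cells that are already activated. Inside the cell, protein kinase C theta, the product of Prkcq, carries the signal from the antigen receptor and CD28 to NF-kappa B, and SASH3 is an adaptor protein of lymphocytes. TSPAN32 is a tetraspanin of the membrane of blood cells. The Skint genes encode membrane proteins related to the butyrophilins, and Skint1 is needed for the selection of a set of gamma delta T cells of mouse skin. Prkcq is also expressed in skeletal muscle.

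The probe sequences are shown because every value below rests on 1 probe for each gene. They are read 5′ to 3′, and the capitals in the Tnfrsf4 probe mark a run of 8 bases that returns below. Of the Skint7 and Prkcq probes the first 30 bases are given.
Cd28: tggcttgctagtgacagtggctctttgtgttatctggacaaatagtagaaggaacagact
Tnfrsf4: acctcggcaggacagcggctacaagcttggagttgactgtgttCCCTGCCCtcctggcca
Tspan32: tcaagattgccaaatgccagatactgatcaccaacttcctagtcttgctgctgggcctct
Skint7: ttctttgcaatatatttacctcaccgcagc
Sash3: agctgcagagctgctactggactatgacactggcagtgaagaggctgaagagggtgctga
Prkcq: aaacttgaaatttacaaatctgttcattct

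The study's tables place all 6 genes on the plus strand, and each overlapped the RefSeq gene of the same name in GRCm38.p6. Cd28 lies at chr1:60746358-60773359, Tnfrsf4 at chr4:156013843-156016612 and Tspan32 at chr7:143005046-143019486. Skint7 lies at chr4:111972927-111988223, Sash3 at chrX:48146436-48161565 and Prkcq at chr2:11172108-11301222. Skint7 and Tnfrsf4 share a chromosome but lie far apart on it. The GC content of the 60-base probes ran from 40.0% in Prkcq and 43.3% in Cd28 and Skint7 through 48.3% in Tspan32 and 55.0% in Sash3 to 61.7% in Tnfrsf4. The exon that each probe covers was not determined here.

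The 10 arrays differed in ways that touch the members. Arrays 1 and 2 of the 3m group were scanned at another time than the other 8, which hold the remaining 3 young hearts and all 5 aged hearts and are called the shared scan. The array's control for mouse GAPDH compares signal at the 3′ end of the transcript with signal at the 5′ end, and its log2 ratio was 1.70 to 1.71 on the pair scanned apart, 2.14 to 2.17 on the other young arrays and 2.33 to 3.06 on the aged arrays. The same log2 ratio for PGK1 was 8.04 to 8.63 in 3m and 8.97 to 9.27 in 20m. Neither ratio overlapped between the age groups. The upper quartile of raw intensity was 129 to 209 in 3m and 109 to 144 in 20m, and 61.3% to 73.3% and 64.0% to 67.3% of the probes were well above background.

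Levels below are log2 quantile-normalized intensities. Of the 6 members, 5 were lower in aged hearts and Prkcq was higher. All 6 probes passed the detection filter, which asked for signal well above background on at least 5 arrays, and Sash3 passed it only through the young arrays. In the limma fit over 16720 mRNA probes, 9.65% were called lower and 4.00% called higher, with limits of 0.05 on the adjusted p and 1 on the size of the log2 difference. The 5 lower members and Prkcq were among these probes, but since they had been chosen on the same contrast nothing is read from that. No member's values overlapped between the age groups. Every aged heart lay below every young heart for 16.1% of the tested probes and above for 8.27%, and again the choice of the members bears on their own count. The median log2 difference over all tested mRNA probes was -0.05.

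**Figure D1:**
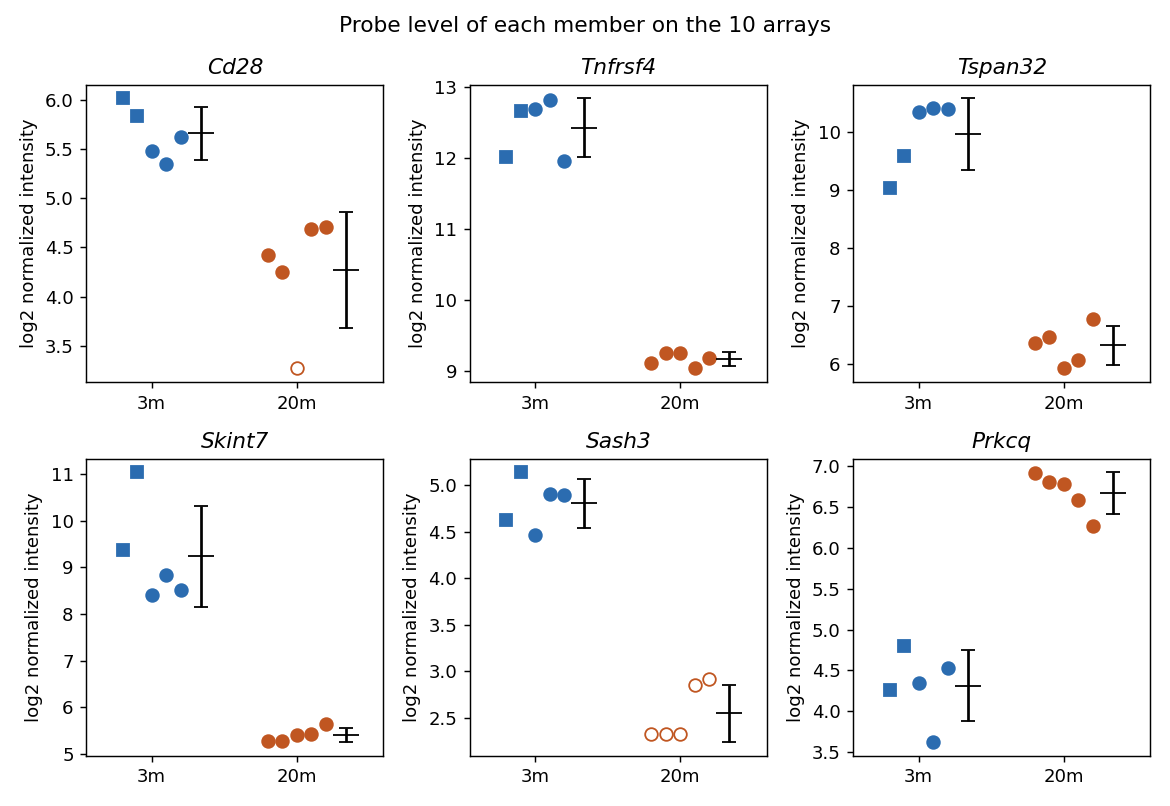
Log2 normalized intensity (vertical axis) of each member on the 10 arrays, by age group (3m blue, 20m orange). Squares are the 3m arrays scanned apart, circles the shared scan and open symbols arrays on which the probe was not well above background, with the mean and SD (n = 5) in black. The groups do not overlap in any panel, and the 5 Sash3 symbols of the 20m group are open.

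Among the costimulatory receptor genes, Cd28 was 2.62-fold lower in aged hearts. Its levels in 3m replicates 1 to 5 were 6.01, 5.84, 5.48, 5.34 and 5.62, and in 20m replicates 1 to 5 they were 4.42, 4.25, 3.27, 4.69 and 4.71. The lowest young heart was 0.63 above the highest aged heart, the narrowest gap of the 6 members, and 20m replicate 3 stood below the other aged hearts. On that array the probe was not well above background, and the array also had the highest GAPDH ratio, 3.06. The mean level was 5.66 ± 0.27 in 3m and 4.27 ± 0.59 in 20m (SD, n = 5 each), a log2 difference of -1.39 (SE 0.26). Without 20m replicate 3 the difference was -1.14, and in the shared scan alone it was -1.21 (SE 0.30). It fell short of the log2 limit of 1 under 2 alternatives, at -0.49 (SE 0.08) with normexp background correction and at -0.43 (SE 0.22) with the GAPDH ratio as a covariate. The pair of young arrays scanned apart was the highest, at 5.93 on average against 5.48 for the other 3.

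Tnfrsf4 was 9.58-fold lower in the aged hearts. Young hearts had levels of 12.01, 12.67, 12.69, 12.82 and 11.97, and aged hearts had 9.11, 9.26, 9.26, 9.04 and 9.19. The aged hearts were close together, whereas 3m replicates 1 and 5 lay below the other 3 young hearts, 1 of them in each scan. Mean levels were 12.43 ± 0.41 and 9.17 ± 0.10 (SD, n = 5 each), a difference of -3.26 on the log2 scale (SE 0.19), with a gap of 2.70 between the groups. In the shared scan the difference was -3.32 (SE 0.20).

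The membrane protein genes Tspan32 and Skint7 were both lower in aged hearts. As for Cd28, their young arrays separated by scan, with Tspan32 lower and Skint7 higher on the pair scanned apart. For Tspan32 the young levels were 9.04, 9.59, 10.35, 10.42 and 10.41, and the aged levels were 6.37, 6.46, 5.92, 6.08 and 6.78. The pair of young arrays scanned apart averaged 9.32 and the other 3 averaged 10.39. The group means were 9.96 ± 0.62 and 6.32 ± 0.34 (SD, n = 5 each), a difference of -3.64 (SE 0.28) or 12.5-fold. Within the shared scan the difference was larger, -4.07 (SE 0.20), and with normexp it was smaller, -2.92 (SE 0.24).

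For Skint7 the young levels were 9.38, 11.04, 8.41, 8.83 and 8.52, and the aged levels were 5.27, 5.27, 5.40, 5.42 and 5.65. Here the pair scanned apart was higher, at 10.21 on average against 8.58, with 3m replicate 2 the highest of all. Means were 9.24 ± 1.08 in 3m and 5.40 ± 0.15 in 20m (SD, n = 5 each), a difference of -3.83 (SE 0.40) or 14.3-fold. It was smaller within the shared scan, at -3.18 (SE 0.16), with normexp background correction, at -2.76 (SE 0.40), and with the GAPDH ratio as a covariate, at -2.86 (SE 0.58). The within-group SD of Skint7, 0.77, was at the 97.3rd percentile of all tested mRNA probes, and that of Tspan32, 0.50, at the 83.1st.

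Of the genes for signalling proteins inside the cell, Sash3 was measured only in young hearts. Young levels were 4.62, 5.14, 4.46, 4.91 and 4.89. No aged array was well above background. The aged values were 2.32, which is the floor, on replicates 1 to 3, then 2.85 and 2.92, so the aged level is only bounded. The mean was 4.80 ± 0.27 in 3m (SD, n = 5), and against the detection limit of the aged arrays, the dimmest probe above background there, a mean of 3.38, Sash3 was at least 2.69-fold lower in 20m. The fitted log2 difference of -2.26 (SE 0.19) depends on the floor and became -2.88 with a floor of 1 and -0.50 with normexp.

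Prkcq was the one member with higher levels in aged hearts. The young levels were 4.27, 4.80, 4.35, 3.62 and 4.53, and the aged levels were 6.91, 6.81, 6.78, 6.59 and 6.27. All arrays were well above background, the lowest aged heart was 1.47 above the highest young heart, and 3m replicate 4 was the lowest. Mean levels were 4.31 ± 0.44 and 6.67 ± 0.25 (SD, n = 5 each), a difference of 2.36 (SE 0.22) or 5.13-fold, and 2.51 (SE 0.23) in the shared scan. With normexp background correction the difference was 1.04 (SE 0.09). Tnni2, which encodes fast skeletal muscle troponin I, was the 1 skeletal muscle marker of 4 with a named probe. It had a log2 difference of -1.53 (SE 0.19), and it had a name only because the study lists it as changed. The cell source of the Prkcq difference was not tested.

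**Figure D2:**
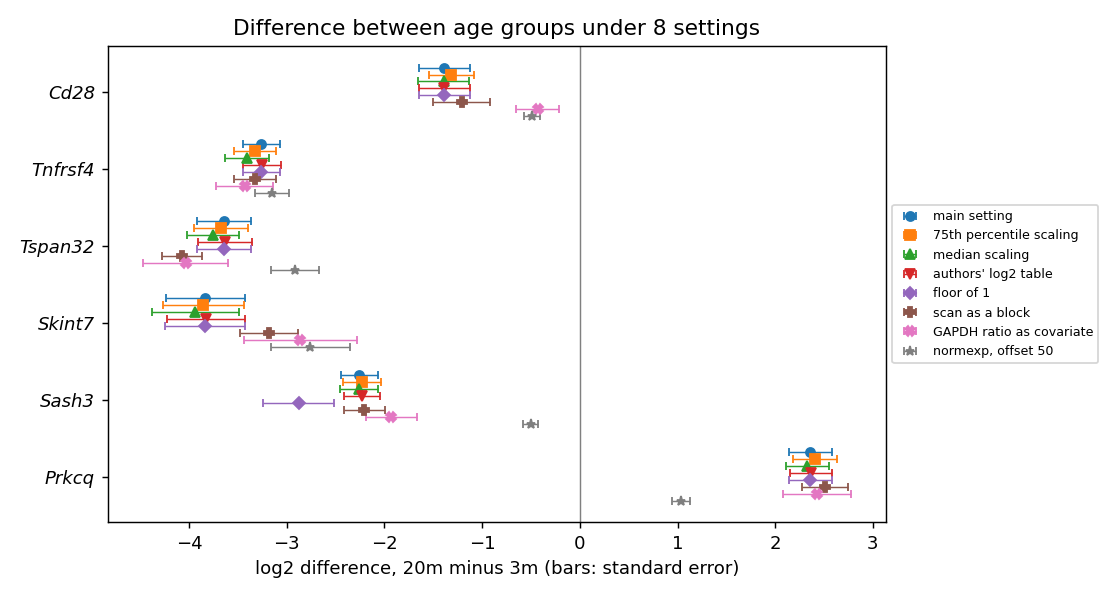
Log2 difference, 20m minus 3m (horizontal axis, bars show the standard error), of each member under 8 ways of processing or modelling the arrays. All differences keep their sign; Cd28 falls to -0.43 with the GAPDH ratio as a covariate and to -0.49 with normexp, which also gives -0.50 for Sash3 and 1.04 for Prkcq.

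The choice of the members used the difference between age groups and, through the study's test, the size of the spread within each age, but not whether 2 members deviate together from heart to heart. Deviations from the age group mean were therefore compared between members over the 10 arrays, in 15 pairs, with exact two-sided permutation within age groups. By Pearson's r the smallest p was that of Skint7 and Sash3 (r = 0.514, permutation p = 0.0996, adjusted p = 0.807), with a Spearman rho of 0.644 (permutation p = 0.0358, adjusted p = 0.269). By Spearman's rho it was that of Skint7 and Cd28 (rho = 0.697, permutation p = 0.0184, adjusted p = 0.269), with an r of 0.278. Within the shared scan Skint7 and Cd28 had a rho of 0.119 and an r of 0.116 (exact permutation p of r = 0.75). In the 8 arrays of the shared scan the smallest p was that of Skint7 and Prkcq, with r = -0.92 (exact permutation p = 0.0167, adjusted p = 0.250), whereas over all 10 arrays their r was 0.371, of the opposite sign. Skint7 and Sash3 had r = 0.758 there (exact permutation p = 0.0417, adjusted p = 0.264). No pair passed the adjustment over 10 arrays or in the shared scan. All 5 aged values of Sash3 were not well above background and 3 of them were at the floor, so its aged deviations are not measured levels and its correlations, in the shared scan too, rest on them in part.

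The deviations were also set against those of the 2 control ratios, a comparison of 12 relations made after the ratios had been seen to differ between the ages. Cd28 was lower on arrays with a higher GAPDH ratio, with r = -0.922 (exact permutation p = 0.00125, adjusted p = 0.0150) and rho = -0.842 (permutation p = 0.00347, adjusted p = 0.0417). The r was -0.922 without the 2 arrays farthest from the median ratio. In the shared scan r was -0.964 (exact permutation p = 0.0125, not adjusted over the 12 relations). Among the young arrays both the ratio and Cd28 separated by scan, and the permutation over all arrays mixes the scans. With PGK1 the correlation of Cd28 was -0.609 (exact permutation p = 0.0117, adjusted p = 0.0704), and none of the other 10 relations passed either, with adjusted p from 0.128 to 0.828. With the GAPDH ratio in the model as a covariate, the age difference of Cd28 was -0.43. The part of RNA quality in that difference was otherwise not tested, since the ratio itself differs between the ages. Over all mRNA probes the covariate took the number called lower from 1613 to 532 and the number called higher from 669 to 540. Of the 676 named lower probes without the 8-base run, 191 had r over 0.8 with Cd28. How many probes follow the ratio was not tested, so the relation is not shown to be particular to Cd28.

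**Figure D3:**
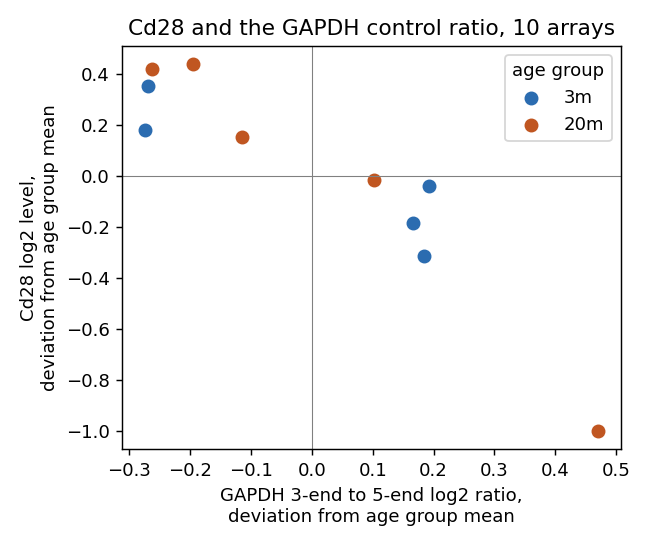
Deviation of the Cd28 log2 level (vertical axis) against the deviation of the GAPDH 3′ end to 5′ end log2 ratio (horizontal axis), each from its age group mean, for 5 young (blue) and 5 aged (orange) arrays. Arrays with a higher ratio have lower Cd28, with r = -0.922, and the lowest point is 20m replicate 3.

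Each member was then matched with the named probe whose deviations were most like its own, out of 734 others over 10 arrays. These correlations are a description, since the arrays share their normalization and each is the highest of many. For Cd28 the nearest was Erp44, which encodes a protein of the endoplasmic reticulum (r = 0.977). For Skint7 it was Tex45 (r = 0.949), for Sash3 the interferon-induced Ifi44 (r = 0.969), and for Tnfrsf4 the synaptic vesicle gene Syn2 (r = 0.953). Tspan32 was most like Tas2r131, a bitter taste receptor gene that was higher in aged hearts (r = 0.858, log2 difference 2.36). The Sash3 match rests in part on aged values that are not well above background, 3 of them at the floor. Prkcq had the weakest match, with the kinase gene Cdk17 (r = 0.770). Cd28 resembled many probes: of the 676 named lower probes without the 8-base run, 191 had r over 0.8 with it, against 22 for Skint7, 12 for Sash3, 4 for Tspan32 and, among 677, 35 for Tnfrsf4 and 0 for Prkcq.

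The Tnfrsf4 probe holds the run CCCTGCCC from position 44, counted from 1 at its 5′ end. The run was searched as printed and as its reverse complement, and was known from earlier results of these data. No probe held the reverse complement. The run itself was found in 13 of the 690 named lower probes (1.88%) and in 0 of the 45 named higher probes, and in none of the other 5 members. The 12 other probes with it deviated together with Tnfrsf4, with a median r of 0.887 (quartiles 0.796 and 0.911, lowest 0.393), while the 677 named lower probes without it had a median r of -0.13. In 8 of the 12 r was over 0.8, against 35 of 677. The probes include Tomm40, the channel of the outer mitochondrial membrane, and Gimap4, a GTPase of lymphocytes, which were named after their values were seen (r = 0.950 and 0.905). As in Tnfrsf4, all 12 had 3m replicates 1 and 5 below the young mean. The median log2 difference was -2.20 over the 12 other probes, -2.49 with Tnfrsf4 included and -1.62 over the named lower probes without the run. Of the 12, 4 were lower in 20m by more than Tnfrsf4. All these probes had been listed as lower by the study, so their differences are a description. The part of the shared run in the Tnfrsf4 values was not tested.

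**Figure D4:**
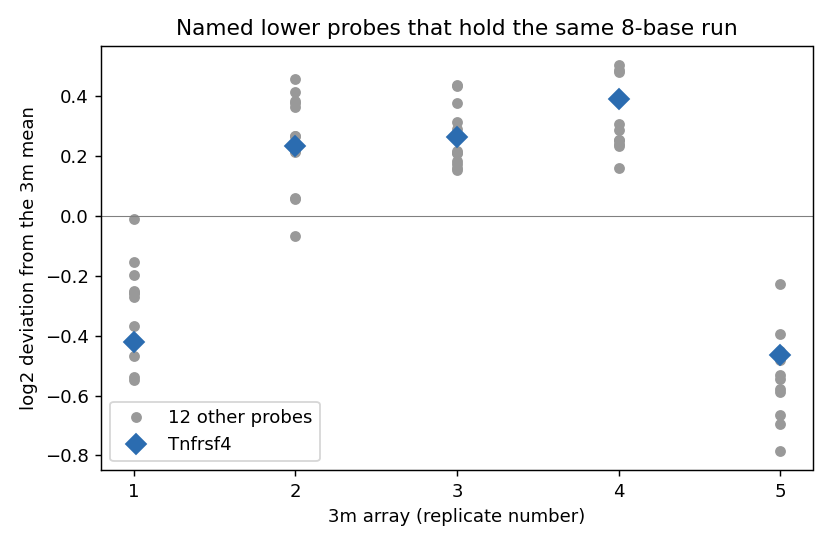
Log2 deviation from the 3m mean (vertical axis) on the 5 young arrays (horizontal axis) of the Tnfrsf4 probe (blue diamonds) and the 12 other named lower probes with the same 8-base run (grey). On arrays 1 and 5 all 13 probes are below their mean, and on arrays 3 and 4 all are above it.

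The named relatives of the members give the pathway around them. The names come from the study's lists of changed probes, of which the list of lower probes was held only in part, so that a gene without a name here may still be on that list or on the array. A gene with a name had passed the study's test on this contrast, and the counts below describe the names at hand. Of 111 textbook genes of T cell receptor signalling and costimulation, 12 had a named probe, of which 11 were lower and 1, Prkcq, was higher in 20m. Over the whole array, 735 of 22359 mRNA probes had a name. The list of 111 was written with the study's lists in view and holds members, so nothing is read from the 12. Of these 12, 11 were lower. That is 91.7% lower, beside 93.9% of all 735 named probes. The median log2 difference of the 11 lower probes was -1.54, beside -1.63 over the 690 named lower probes. Probes of the other 99 genes were not analysed here.

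Besides the members, the list holds 8 genes, most of which act in many cell types. Skap1, an adaptor for integrin activation in T cells, had a log2 difference of -2.17 (SE 0.23) and was well above background on 2 aged arrays, so that its aged level is in part unmeasured. Tagap, a T cell activation GTPase-activating protein, was well above background on no aged array and was at least 2.06-fold lower. The other 6 were well above background on all 10 arrays, with log2 differences between -1.63 and -1.41. These were Gsk3b, a kinase that promotes the nuclear export of NFAT, at -1.63, Cblb, a ubiquitin ligase that restrains T cell activation, at -1.54, and the small GTPase genes Hras at -1.52 and Cdc42 at -1.48. Ppp3cb, a catalytic subunit of calcineurin, was at -1.42 and Map2k7, which activates JNK, at -1.41.

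In the protein kinase C family the 2 named genes went in opposite directions. Prkce, the epsilon isoform, which is well known in heart muscle, had a level of 13.06 ± 0.31 in 3m and 11.64 ± 0.48 in 20m (SD, n = 5 each), a log2 difference of -1.42 (SE 0.24), while Prkcq was higher by 2.36. Among the tetraspanins Tspan12 and Tspan2 were well above background on no aged array and were at least 2.92-fold and 1.42-fold lower, beside the 12.5-fold lower Tspan32. In the TNF receptor superfamily and its ligands, Tnfsf10, which encodes the ligand TRAIL, had a difference of -2.76 (SE 0.41), and Tnfrsf21, death receptor 6, had one of -1.78 (SE 0.25) but was well above background on 1 aged array, so that its aged level is largely unmeasured. No Skint gene other than Skint7 had a named probe in the part of the list held.

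**Figure D5:**
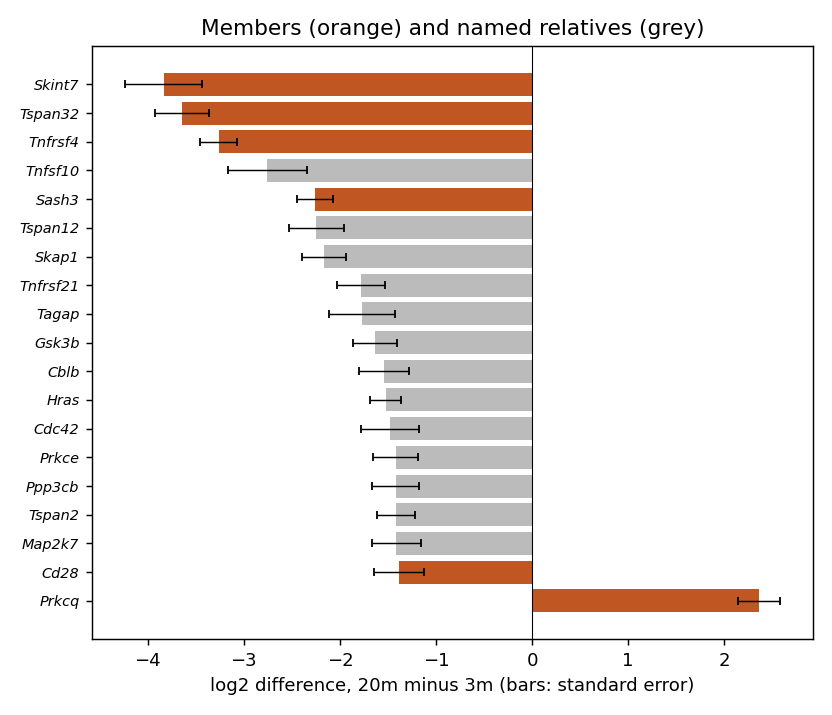
Log2 difference, 20m minus 3m (horizontal axis, bars show the standard error), of the 6 members (orange) and the 13 other named genes of the T cell list and the families (grey). Prkcq at 2.36 is the one gene above 0; for Sash3, Tagap, Tspan12 and Tspan2 the length is not a measured difference, since no aged array was well above background, and for Tnfrsf21 and Skap1 only 1 and 2 aged arrays were.

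None of the 11 T cell markers looked for, such as the CD3 chains, had a named probe in the part of the list held, and the same was true for 4 B cell, 5 cardiomyocyte and 3 fibroblast markers. The number of T cells in these hearts and the cardiac label of the tissue were therefore not checked through those genes. Of 7 macrophage markers, Vsig4 was named and was higher in 20m, with a log2 difference of 2.25 (SE 0.39). Of 4 neutrophil markers 2 were named, Cxcr2 at 2.69 (SE 0.35) and S100a8 at 2.72 (SE 0.33), both higher. The S100a8 probe was well above background on 1 young array and on all 5 aged arrays, so that its young level is largely unmeasured. Tek, the 1 named marker of 3 for endothelium, was well above background on no aged array and was at least 2.23-fold lower. The named markers have a name only because the study lists them as changed on this contrast, so their change with age was fixed in advance. The other markers of these lists were not analysed here. The part of the named markers in the members' differences was not tested.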

How the data were processed

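Heart RNA of 10 mice was measured on one-colour Agilent arrays. The authors deposited the scanner files, which hold background-subtracted intensity per spot, and a table of log2 values normalized by quantiles, per the methods. Spots flagged as outliers were left out, the intensity of 60641 probes was normalized by quantiles, raised to 5 where lower and put on the log2 scale, and limma 3.58.1 in R 4.3.3 was fitted with age group (Benjamini-Hochberg within mRNA). In the scanner header the version of the Feature Extraction software differs from the 9.1 of the submitters' processing notes. The files pair no probe with a gene. Names and sequences came from the study's tables, of which 690 lower probes were held here, a part of the study's list; 45 higher ones, Prkcq included, were identified in the authors' log2 table by the p-value and fold listed for them, within 0.002 on log scales. The authors' own fold changes and p-values were used for nothing else. Where no array of a group was well above background, the fold is a bound, computed against the probe's own level or the array's dimmest detected probe, whichever was higher on that array. The model was tested on simulated data with known changes. Groups came from the sample labels.

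The members and gene lists were chosen with earlier results of these data known. The genes given values are the members, the most alike probe of each member and the control transcripts. Listed relatives and cell-type markers with a named probe are also given. Tomm40 and Gimap4, whose probes hold the same run as the Tnfrsf4 probe, were named after their values were seen. Array data give no count depth, and the number of arrays limits the precision. Replicates were different donor mice. Figures were drawn with matplotlib 3.10.9. Alternatives covered scaling, floor, background correction, flags, filter, test, adjustment, scan, replicate number and each array left out. Relations with the control ratios, and the GAPDH ratio as a covariate, were added after seeing the data.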

Additional observations from a re-analysis of the deposited data

How the results depend on the processing

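Of 120 alternative values of the 6 member differences, 111 moved by less than 1 within-group SD, 9 moved by more and 0 changed sign. Normexp background correction, which adds an offset of 50 that is above the signal of dim probes by construction, gave log2 differences of -0.49 for Cd28, -0.50 for Sash3, 1.04 for Prkcq, -2.92 for Tspan32 and -2.76 for Skint7, and 247 higher and 547 lower mRNA probes in place of 669 and 1613. With the GAPDH ratio as a covariate, chosen after seeing the data, Cd28 was at -0.43, Sash3 at -1.93 and Skint7 at -2.86. That setting called 540 mRNA probes higher and 532 lower, and the cause was not tested. A floor of 1 gave -2.88 for Sash3. The shared scan alone, with fewer arrays, called 993 probes lower, and without a fold limit 2124 were called higher and 3695 lower. Leaving out each array in turn gave -3.87 to -3.53 for Tspan32, -4.04 to -3.38 for Skint7, -1.50 to -1.14 for Cd28, -2.35 to -2.17 for Sash3, -3.38 to -3.16 for Tnfrsf4 and 2.19 to 2.48 for Prkcq, with 579 to 762 higher and 1264 to 1854 lower probes. Sash3 did not pass the detection filter when a young array was left out or in the shared scan alone. The r of Skint7 and Sash3 was 0.308 with 75th percentile scaling and 0.534 in the authors' log2 table. The replicate numbers did not pair the arrays, with correlations of same-numbered deviations from -0.365 to 0.242 and 2 of 10 arrays most like their own number; with the replicate number as a block 669 probes were called higher and 1612 lower.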
